A study of Mus musculus with 40 samples.

Results

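The heat shock proteins and cochaperones are the chaperones and chaperone partners of the cytosol and mitochondria, together with the transcription factors Hsf1 and Hsf2. They were taken here as 40 genes matched by symbol. These were 5 HSP70 proteins, 3 HSP110 proteins, 2 HSP90 proteins, 6 small heat shock proteins, the 2 subunits of the mitochondrial chaperonin, 8 J proteins, 8 cochaperones, 4 subunits of the CCT chaperonin and the 2 heat shock factors. All 40 were found among the 17402 genes listed for the genotype experiment and among the 15399 listed for the CsA experiment, and all 40 passed the filter on low signal in both. RNA was sequenced from the aortas of male mice, with perivascular tissue and adventitia stripped off, and each library was a pool of 3 aortas.

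In the genotype experiment, mice had a floxed CnB1 gene (Ppp3r1), which encodes the regulatory subunit of the phosphatase calcineurin (Cn). They were dosed with 1 mg tamoxifen per day for 5 days at 10 to 12 weeks of age and studied 6 weeks later. Cn-Ctl mice were labelled CnB1-flox; Myh11-CreERT2-neg, that is, without Cre, although the study's methods also describe mice with Cre and an unfloxed CnB1 gene as Cn-Ctl. SM-Cn-/- mice carried Myh11-CreERT2, a tamoxifen-inducible Cre driven in smooth muscle. Both were left untreated or were infused with angiotensin II (Ang-II), the vasoconstrictor peptide of the renin-angiotensin system, at 1 µg/kg/min from a subcutaneous minipump for 2, 6 or 24 h. In the CsA experiment, C57BL/6J wild-type (WT) males had no first pump or were given the calcineurin inhibitor cyclosporine A (CsA) at 5 mg/kg/day for 5 days, followed by the same Ang-II infusion for 2 or 24 h or no Ang-II. There were 3 libraries in each group except untreated Cn-Ctl and Cn-Ctl at 24 h, which had 2. The study dropped 1 untreated Cn-Ctl replicate because it lay far from the other 2 in a principal component analysis. The spread left between the untreated Cn-Ctl libraries may therefore be understated. The study's methods give no reason for the missing Cn-Ctl library at 24 h. Treated Cn-Ctl, WT and CsA mice were kept when systolic pressure was above 130 mmHg. Treated SM-Cn-/- mice were not selected on pressure, since the study reported a raised pressure in none of them. The genotype, the pressure itself and the selection on it therefore cannot be told apart after Ang-II. SM-Cn-/- mice in which CnB1 deletion could not be shown were removed. CsA mice were removed when the drug could not be shown to block dephosphorylation of NFAT, a calcineurin substrate, in the thymus. Ang-II came with implantation of its own minipump and a tail-cuff pressure measurement afterwards, on a warmed platform. Controls in the study had surgery without a pump, at a time before collection that is not given in the sources used here, and untreated CsA mice carried the CsA pump. No group analysed here is described as having a newly implanted pump without Ang-II, so such a pump, the later pressure measurement and the peptide cannot be told apart within an arm.

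Heat shock proteins hold unfolded proteins and help them fold. HSP70 binds exposed hydrophobic stretches in a cycle that J proteins start and exchange factors such as the HSP110 proteins and Bag3 end. HSP90 takes over partly folded clients with its cochaperones, and the ATP-independent small heat shock proteins hold clients until HSP70 can act. Their genes are switched on together when HSF1 trimers bind heat shock elements, which are inverted repeats of the pentamer nGAAn. In muscle, the aorta's included, HSPB1, HSPB6 and αB-crystallin are abundant proteins that associate with actin and contractile filaments.

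The library totals behind these values were 2728007 to 10250178 reads in the genotype experiment and 18976266 to 38900009 in the CsA experiment. Reads per member ran from 37 for Hspa13 to 71289 for Hspa8 in the former and from 348 for Hsf2 to 175626 for Hspa8 in the latter, so counting error was a small part of the spread for most members. Ppp3r1 signal overlapped between the genotypes, at 45.7 to 134 in Cn-Ctl and 41.8 to 118 in SM-Cn-/- libraries, so the deletion was not visible at the level of the whole gene. The study checked CnB1 recombination by PCR on a piece of the aortic tissue. It also reported less CnB and CnA protein in SM-Cn-/- aortas by immunoblot. All 5 smooth muscle markers examined (Myh11, Acta2, Tagln, Cnn1 and Smtn) were expressed in every group. Their summed signal was 27742 to 28205 in untreated Cn-Ctl and 26758 to 34802 in Cn-Ctl at 2 h. In SM-Cn-/- it was 20202 to 23626 untreated and 24589 to 30834 at 2 h, and in the CsA experiment it was 24805 to 34010 in untreated WT against 15675 to 17718 in untreated CsA libraries. In these bulk samples fewer cells of a type and less RNA per cell cannot be told apart.

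Hspa1a, Hspa1b and Hspb1 were 3 of the 4 members with the largest changes at 2 h in Cn-Ctl mice. For these genes the 250 bases before the RefSeq start are printed 5′ to 3′ (GRCm38.p6, no gene or exon of GENCODE vM21 within them), with matches to GAANNTTC or TTCNNGAA, the core of a heat shock element, in capitals.
Hspa1a, chr17:34972157-34972406, minus strand: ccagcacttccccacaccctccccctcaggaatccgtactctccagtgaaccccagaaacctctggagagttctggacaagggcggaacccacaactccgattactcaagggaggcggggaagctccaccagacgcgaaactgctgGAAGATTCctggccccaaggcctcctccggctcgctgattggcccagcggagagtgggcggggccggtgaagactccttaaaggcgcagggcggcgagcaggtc
Hspa1b, chr17:34959239-34959488, minus strand: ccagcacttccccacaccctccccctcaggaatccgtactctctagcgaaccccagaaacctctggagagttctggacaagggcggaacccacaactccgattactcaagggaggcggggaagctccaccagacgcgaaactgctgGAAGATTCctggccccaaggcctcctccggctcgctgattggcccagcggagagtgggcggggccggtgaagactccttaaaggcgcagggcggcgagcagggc
Hspb1, chr5:135887669-135887918, plus strand: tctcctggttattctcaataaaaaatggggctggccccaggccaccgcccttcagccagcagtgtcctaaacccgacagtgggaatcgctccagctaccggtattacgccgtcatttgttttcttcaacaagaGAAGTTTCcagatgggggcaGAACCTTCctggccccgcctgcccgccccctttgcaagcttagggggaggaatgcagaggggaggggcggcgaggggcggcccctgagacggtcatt
The Hspa1a and Hspa1b promoters differed at 3 of 250 positions and held the same match, whereas Hspb1 held 2 matches. These 2 HSP70 genes also shared much of their transcripts, with 62.3% of the 36-base windows of the 2967-base Hspa1a transcript found in Hspa1b and 66.0% of those of the 2803-base Hspa1b transcript found in Hspa1a. The split of reads between them is therefore uncertain, and their values are best read together.

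A longer heat shock element (a further GAA or TTC core beside the short motif, in alternating orientation) was searched on both strands. It was found in 3 of the 31 members with a promoter in the table and, counted by gene in the same way, in 0.514% of all 27025 genes in the table. The shorter motif was found in 14 of 31 members and in 14.5% of all genes, and every long match contains overlapping short ones. Each 30-base window below lies within 250 bases before a RefSeq start. The first is from the shared, divergent promoter region of Hspd1 and Hspe1 and is printed once for each strand.
Hspe1, chr1:55088053-55088082, plus strand: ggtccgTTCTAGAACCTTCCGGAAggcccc
Hspd1, chr1:55088053-55088082, minus strand: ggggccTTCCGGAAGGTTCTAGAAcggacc
Dnajb6, chr5:29735844-29735873, plus strand: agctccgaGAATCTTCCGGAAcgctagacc
Dnaja4, chr9:54699458-54699487, plus strand: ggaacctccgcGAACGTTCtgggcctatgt
Hsph1, chr5:149636351-149636380, minus strand: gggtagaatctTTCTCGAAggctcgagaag
Fkbp4, chr6:128438789-128438818, minus strand: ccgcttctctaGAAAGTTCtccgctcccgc
By GENCODE vM21 the Hspd1 and Hspe1 window overlapped an Hspd1 exon, the Hsph1 window an Hsph1 exon, and the Dnajb6 window exons of Dnajb6 and of Gm5129 on the opposite strand. The Fkbp4 window overlapped an exon of Gm10069 on the opposite strand, and the Dnaja4 window lay within the bounds of Dnaja4 but in no exon. The 2 annotations start these genes at different bases. Hspe1, Hspd1 and Dnajb6 held the long element, and Dnaja4, Hsph1 and Fkbp4 held the short one alone.

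In untreated aorta the constitutive chaperone Hspa8 (HSC70) was the most expressed member per kb of its longest protein-coding transcript (GENCODE vM21). The mean deposited signal, a normalised read count, came to 618 per kb for Hspa8 and 396 for Hsp90ab1, the constitutive HSP90, in Cn-Ctl mice. Next per kb were the inducible HSP90 Hsp90aa1 (183), the small heat shock protein Hspb7 (170.3), Cryab (145) and Hspb1 (145), and the lowest was Hspa4l (2.66). In untreated WT mice the order began with Hspa8 (633), Hspb1 (515), Hsp90ab1 (385), Hspb7 (276) and Hspa1b (162) per kb. The order depends on the length used. Over the joined exons of all transcripts, Hspa8 in WT came to 352 per kb and Hspb1, then first, to 465. Levels were not tested between genes, and the 2 experiments were normalised separately.

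Within 2 h of Ang-II the members took up a several-fold larger share of the signal in 3 of the 4 arms. The 40 genes made up 0.751% and 0.814% of the signal in the untreated Cn-Ctl libraries and 3.13%, 3.32% and 2.82% at 2 h. They made up 1.93%, 2.06% and 2.11% at 6 h and 1.06% and 1.17% at 24 h. In SM-Cn-/- mice the share was 0.924%, 0.766% and 0.596% untreated, and 1.12%, 0.931% and 1.17% at 2 h. Later it was 1.21%, 1.10% and 0.989% at 6 h and 0.666%, 0.735% and 0.666% at 24 h. All treated Cn-Ctl libraries at 2 and 6 h thus lay above every SM-Cn-/- library. In the CsA experiment it was 0.893%, 0.876% and 1.01% in untreated WT, and 3.99%, 3.11% and 4.06% in WT at 2 h. CsA libraries held 0.832%, 0.839% and 0.698% untreated and 2.04%, 3.03% and 2.60% at 2 h. By 24 h it stood at 1.18%, 1.35% and 0.980% in WT and at 0.760%, 0.803% and 0.671% in CsA, so that the CsA libraries at 24 h lay within or below the range of their untreated group.

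In Cn-Ctl aorta 28 of the 40 members were higher at 2 h of Ang-II and none was lower, with a median log2 fold change of 1.31 over the 40. This compares with 4.72% of all 14424 genes tested called higher (6.23% in either direction) and a median near 0.01 over all genes. In WT aorta 35 of 40 were higher and none was lower (median 1.22, against 11.4% of 13738 genes called higher and 21.4% in either direction). In CsA-treated aorta 33 of 40 were higher (median 0.88, against 12.3% higher and 20.1% in either direction). In SM-Cn-/- aorta only Hspb1, Hspb8 and Dnajb4 were called (median 0.34, against 0.984% of genes called higher and 1.13% in either direction). There 34 of the 40 log2 fold changes were above 0. An unadjusted p under 0.05 by limma was reached by 17 of the 40, and by 1870 of the 14424 genes tested. A call is an adjusted p under 0.05 by limma with Benjamini-Hochberg adjustment over all protein-coding genes tested, and fold changes are on the log2(signal + 0.5) scale and given ± SE. All comparisons within an arm share its untreated libraries. By role, the calls at 2 h in Cn-Ctl mice covered 3 of 5 HSP70, 3 of 3 HSP110, 2 of 2 HSP90, 4 of 6 small heat shock, 2 of 2 mitochondrial chaperonin, 5 of 8 J protein, 6 of 8 cochaperone, 3 of 4 CCT and 0 of 2 heat shock factor genes.

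**Figure D1:**
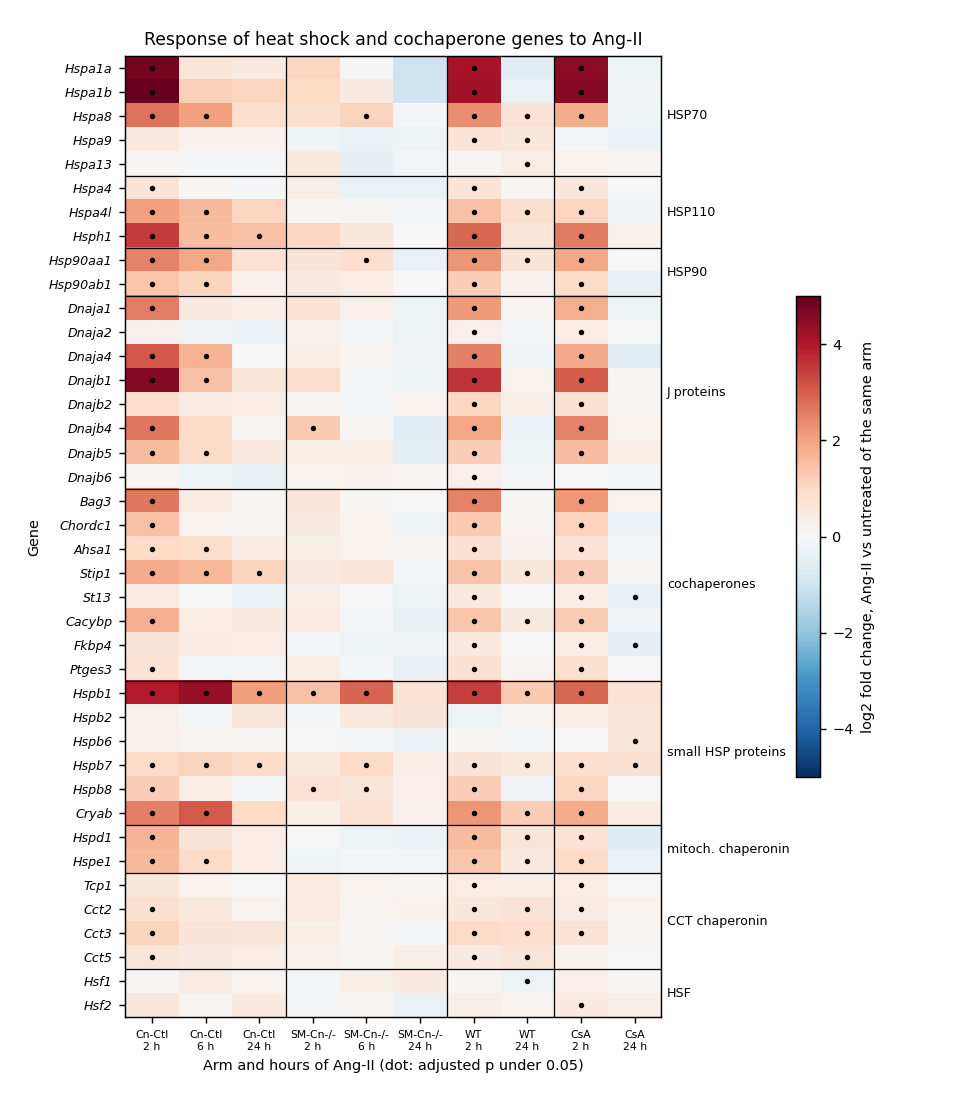
Heat map of log2 fold changes of Ang-II against untreated libraries for the 40 members (rows, grouped by role) in 10 comparisons (columns: Cn-Ctl and SM-Cn-/- at 2, 6 and 24 h, WT and CsA at 2 and 24 h), with colour from -5 to 5 and dots marking an adjusted p under 0.05 by limma. The 2 h columns of Cn-Ctl, WT and CsA carry 28, 35 and 33 dots, the SM-Cn-/- 2 h column 3, and the 6 h Cn-Ctl column 14.

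The stress-inducible HSP70 genes rose most. Hspa1b (chr17:34956436-34959238, GRCm38) had a signal of 74.2 and 90.4 in the untreated Cn-Ctl libraries and of 3268, 3295 and 2309.7 at 2 h, a log2 fold change of 5.15 ± 0.47 (adjusted p = 2.19e-07). Hspa1a (chr17:34969190-34972156) went from 56.1 and 101 to 2260.4, 2508 and 1608, a log2 fold change of 4.78 ± 0.53 (adjusted p = 2.65e-06). Every library at 2 h stood far above both untreated ones, and the geometric fold of Hspa1b was 35.4. In WT mice Hspa1b was 463, 256 and 646 untreated and 8934, 6263 and 8697 at 2 h (4.21 ± 0.45 (adjusted p = 9.15e-06) on the log2 scale), and Hspa1a was 332, 199 and 499 and 6266, 4509 and 6435 (4.14 ± 0.46 (adjusted p = 1.24e-05)). After CsA, Hspa1b was 277, 143 and 122 untreated and 2834, 6067 and 3643 at 2 h (4.55 ± 0.45 (adjusted p = 1.3e-05)), and Hspa1a was 201, 117 and 105 and 2213, 4632 and 2931 (4.52 ± 0.46 (adjusted p = 1.44e-05)). No treated library overlapped an untreated one for either gene. Per kb of the longest coding transcript, mean Hspa1b signal at 2 h was 1055 in Cn-Ctl and 2841 in WT, against 4075 and 3199.7 for Hspa8. Over joined exons Hspa8 was 2268 and 1781, so that the order of the pair in WT turns with the length used.

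In SM-Cn-/- aorta Hspa1b was 154, 67.2 and 27.7 untreated and 167, 71.7 and 188 at 2 h, and the difference did not pass the test (0.98 ± 0.42 (adjusted p = 0.316)). The corresponding Hspa1a signals were 135, 46.3 and 26.2 and 136, 61.8 and 185 (1.07 ± 0.47 (adjusted p = 0.332)). The untreated and treated SM-Cn-/- libraries overlapped for both, with untreated replicate 1 at the level of the treated libraries. The responses of the genotypes differed by -4.16 ± 0.63 (adjusted p = 0.0022) for Hspa1b and by -3.71 ± 0.70 (adjusted p = 0.0126) for Hspa1a on the log2 scale (SM-Cn-/- minus Cn-Ctl).

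Hspa8 rose from 1321 and 1640.1 to 9539, 11236 and 8490.3 in Cn-Ctl at 2 h (2.72 ± 0.28 (adjusted p = 1.14e-06)), and from 1317, 1532 and 1699 to 8254, 5699.6 and 9027 in WT (2.32 ± 0.22 (adjusted p = 3.03e-06)). In CsA-treated mice it went from 1507, 1443 and 1268 to 4196, 6436 and 5018 (1.87 ± 0.22 (adjusted p = 6.07e-05)). The SM-Cn-/- libraries held 1902, 1256 and 839 untreated and 2701, 1908 and 2259 at 2 h (0.85 ± 0.25 (adjusted p = 0.116)), of which the lowest treated library barely exceeded the highest untreated one. The 2 other HSP70 genes lie outside the cytosol: Hspa9, the mitochondrial HSP70, did not pass the test in Cn-Ctl at 2 h (0.51 ± 0.23 (adjusted p = 0.242)) and rose in WT (0.70 ± 0.19 (adjusted p = 0.0152)), while Hspa13, a microsomal HSP70, passed it in none of the 4 arms at 2 h.

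All 3 HSP110 genes, whose products exchange nucleotide on HSP70, rose in Cn-Ctl, WT and CsA arms at 2 h. Hsph1 (HSP105) was 113 and 130.0 in untreated Cn-Ctl and 1315, 1553 and 1297 at 2 h (3.51 ± 0.37 (adjusted p = 1.91e-06)), and 253, 108 and 50.4 and 285, 165 and 260.4 in SM-Cn-/- (1.05 ± 0.33 (adjusted p = 0.157)). In WT it was 147, 133 and 149 and 1294, 719.6 and 1297 (2.89 ± 0.24 (adjusted p = 7.51e-07)), and with CsA 169, 120.4 and 92.8 and 598, 1009 and 678 (2.58 ± 0.24 (adjusted p = 8.51e-06)). Hsph1 was thus separated from untreated in those 3 arms, while in SM-Cn-/- the highest untreated library, replicate 1, lay within the treated range. Hspa4l was 25.9 and 24.5 and 120.1, 105 and 91.0 in Cn-Ctl (2.03 ± 0.32 (adjusted p = 0.000188)), and 31.9, 29.7 and 17 and 29.9, 24.9 and 26.7 in SM-Cn-/-. In WT Hspa4l was 35.0, 33.7 and 32.0 and 114, 72.6 and 99.3, and with CsA it was 53.6, 28.8 and 30.3 and 63.0, 101 and 71.7. The third, Hspa4, rose by less, with log2 fold changes of 0.65 ± 0.19 in Cn-Ctl and 0.63 ± 0.11 in WT.

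Among J proteins, which deliver clients to HSP70 and stimulate its ATPase, Dnajb1 (HSP40) responded most. Its signal was 25.4 and 39.3 in untreated Cn-Ctl and 595, 867 and 931 at 2 h (4.61 ± 0.37 (adjusted p = 3.19e-08)), and 74.1, 31.5 and 25.5 and 73.5, 56.4 and 90.3 in SM-Cn-/- (0.87 ± 0.33 (adjusted p = 0.241)). In WT it was 49.7, 52.5 and 69.4 and 773, 569.5 and 795 (3.63 ± 0.25 (adjusted p = 1.6e-07)), and with CsA 58.3, 42.3 and 33.0 and 258, 442 and 416 (3.05 ± 0.25 (adjusted p = 4.4e-06)). The 3 Cn-Ctl libraries at 2 h all lay far above the highest of the 6 SM-Cn-/- libraries, untreated or at 2 h.

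Dnaja4, a cytosolic HSP70 partner, read 24.5 and 23.3 in untreated Cn-Ctl and 199.5, 212 and 210.1 at 2 h (3.09 ± 0.21 (adjusted p = 1.92e-08)), but 28.9, 24.9 and 27.3 and 41.2, 25.1 and 35.1 in SM-Cn-/- (0.29 ± 0.19 (adjusted p = 0.528)). WT libraries held 27.4, 29.2 and 32.4 untreated and 186, 135 and 196 at 2 h (2.50 ± 0.21 (adjusted p = 8.12e-07)), and CsA libraries 38.4, 29.4 and 22.1 and 87.5, 149.9 and 101 (1.89 ± 0.21 (adjusted p = 3.19e-05)). Dnaja1, a broadly expressed HSP70 partner, was 130.4 and 142 and 818, 808 and 813 in Cn-Ctl (2.57 ± 0.28 (adjusted p = 2.15e-06)), and 218, 110.1 and 82.8 and 274, 155 and 192 in SM-Cn-/-. In WT Dnaja1 was 138, 134 and 132 and 671, 437 and 709, and with CsA it was 164, 132 and 115 and 374, 616 and 465. For both genes the treated and untreated libraries were apart in Cn-Ctl, WT and CsA arms and overlapped in SM-Cn-/-.

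Dnajb4 was the J protein that rose in all 4 arms. It was 188 and 334 and 1416, 1389 and 2005 in Cn-Ctl (2.65 ± 0.36 (adjusted p = 3e-05)), and 428, 298 and 152 and 955, 584 and 542 in SM-Cn-/- (1.32 ± 0.32 (adjusted p = 0.0408)), where all 3 treated libraries exceeded the untreated ones. It was 276, 331 and 339.6 and 1316, 943 and 1374 in WT, and 188, 165 and 121 and 669.6, 1091 and 893 with CsA. Dnajb5 was 114 and 140.4 and 477, 410.5 and 273 in Cn-Ctl (1.57 ± 0.24 (adjusted p = 0.000147)), and 164, 164 and 135 and 184, 149 and 274 in SM-Cn-/- (0.35 ± 0.22 (adjusted p = 0.5)). In WT Dnajb5 was 143, 172 and 202 and 425, 337 and 437, and with CsA it was 87.2, 98.4 and 90.4 and 224, 328 and 268. Dnajb2 was 58.0 and 76.6 and 156, 142 and 80.9 in Cn-Ctl, which did not pass the test (0.86 ± 0.27 (adjusted p = 0.0557)), and 72.5, 66.2 and 75.6 and 159, 113 and 173 in WT (1.03 ± 0.14 (adjusted p = 0.000102)). Dnaja2 and Dnajb6 did not pass in Cn-Ctl either (0.20 ± 0.22 and 0.10 ± 0.17), although all 8 J proteins were called higher in WT.

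Of the cochaperones, Bag3 rose most in Cn-Ctl, WT and CsA arms. BAG3 is an HSP70 exchange factor that works with HSPB8 in chaperone-assisted autophagy of filament proteins in muscle. Bag3 signal was 104 and 97.9 in untreated Cn-Ctl and 591, 742 and 569.8 at 2 h (2.63 ± 0.21 (adjusted p = 3.14e-08)), and 127, 92.8 and 81.6 and 154, 128 and 170.4 in SM-Cn-/- (0.60 ± 0.19 (adjusted p = 0.144)). WT libraries held 110.0, 105 and 121 untreated and 734, 469.7 and 719 at 2 h (2.49 ± 0.17 (adjusted p = 1.6e-07)), and CsA libraries 97.4, 86.7 and 87.8 and 334, 557 and 379 (2.18 ± 0.17 (adjusted p = 3.72e-06)). In SM-Cn-/- all 3 treated libraries were above the untreated ones, by much less than in the other arms.

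Cochaperones of HSP90 rose less than Bag3. Stip1, the adaptor that joins HSP70 to HSP90, was 92.1 and 99.9 and 378, 377 and 289 in Cn-Ctl (1.84 ± 0.24 (adjusted p = 2.59e-05)), and 147, 80.5 and 66.6 and 137, 118 and 137 in SM-Cn-/-. In WT Stip1 was 88.4, 99.2 and 93.6 and 292, 185 and 299, and with CsA it was 95.1, 85.2 and 81.8 and 176, 284 and 173. Chordc1 was 61.5 and 57.8 and 166, 159 and 176 in Cn-Ctl (1.48 ± 0.23 (adjusted p = 0.000196)), and 67.3, 55.0 and 39.4 and 93.0, 71.9 and 55.0 in SM-Cn-/-. In WT Chordc1 was 65.2, 57.1 and 52.4 and 171, 104 and 169, and with CsA it was 68.1, 57.8 and 46.3 and 113, 163 and 110.4. Ahsa1, which stimulates the HSP90 ATPase, was 82.7 and 68.0 and 165, 164 and 126 in Cn-Ctl (1.00 ± 0.19 (adjusted p = 0.00118)), and 96.5, 82.3 and 64.8 and 100.2, 89.4 and 103 in SM-Cn-/-. In WT Ahsa1 was 77.9, 78.2 and 80.5 and 152, 109 and 151, and with CsA it was 76.7, 85.0 and 69.5 and 116, 153 and 116. For these 3 genes the Cn-Ctl, WT and CsA libraries at 2 h all exceeded their untreated libraries, and the SM-Cn-/- libraries overlapped. Cacybp was 43.2 and 41.2 and 162, 146 and 132 in Cn-Ctl (1.78 ± 0.29 (adjusted p = 0.000341)), and 78.2, 44.3 and 28.4 and 69.3, 51.3 and 66.2 in SM-Cn-/-. In WT Cacybp was 40.1, 38.8 and 31.2 and 104, 77.6 and 114, and with CsA it was 41.8, 35.9 and 33.9 and 77.2, 108 and 89.4. Ptges3 (the HSP90 cochaperone p23) also rose in Cn-Ctl, whereas Fkbp4 (0.65 ± 0.24) and St13 (0.40 ± 0.20) did not pass the test there and rose in WT (0.48 ± 0.11 (adjusted p = 0.00622) and 0.48 ± 0.10 (adjusted p = 0.00297)).

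Both cytosolic HSP90 genes rose in Cn-Ctl, WT and CsA arms at 2 h, the inducible one more. Hsp90aa1 was 566 and 634 in untreated Cn-Ctl and 3743, 3507 and 2750.3 at 2 h (2.46 ± 0.23 (adjusted p = 3.4e-07)), and 529.7, 638 and 411 and 912, 693 and 859 in SM-Cn-/- (0.66 ± 0.21 (adjusted p = 0.152)). It was 431, 476 and 526 and 2367, 1675 and 2599 in WT (2.19 ± 0.18 (adjusted p = 6.62e-07)), and 476, 467 and 389.6 and 1364, 2016 and 1699.6 with CsA (1.92 ± 0.18 (adjusted p = 8.33e-06)). Treated libraries exceeded untreated ones in all 4 arms, without passing the test in SM-Cn-/-. Hsp90ab1 was 1027 and 969 and 2545, 2794 and 2454 in Cn-Ctl (1.38 ± 0.21 (adjusted p = 0.000183)), and 1217, 952 and 781 and 1481, 1261 and 1390.0 in SM-Cn-/-. In WT Hsp90ab1 was 921, 979 and 1013 and 2523, 1831 and 2563, and with CsA it was 1003, 1001 and 859 and 1557, 2077 and 1811.

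**Figure D2:**
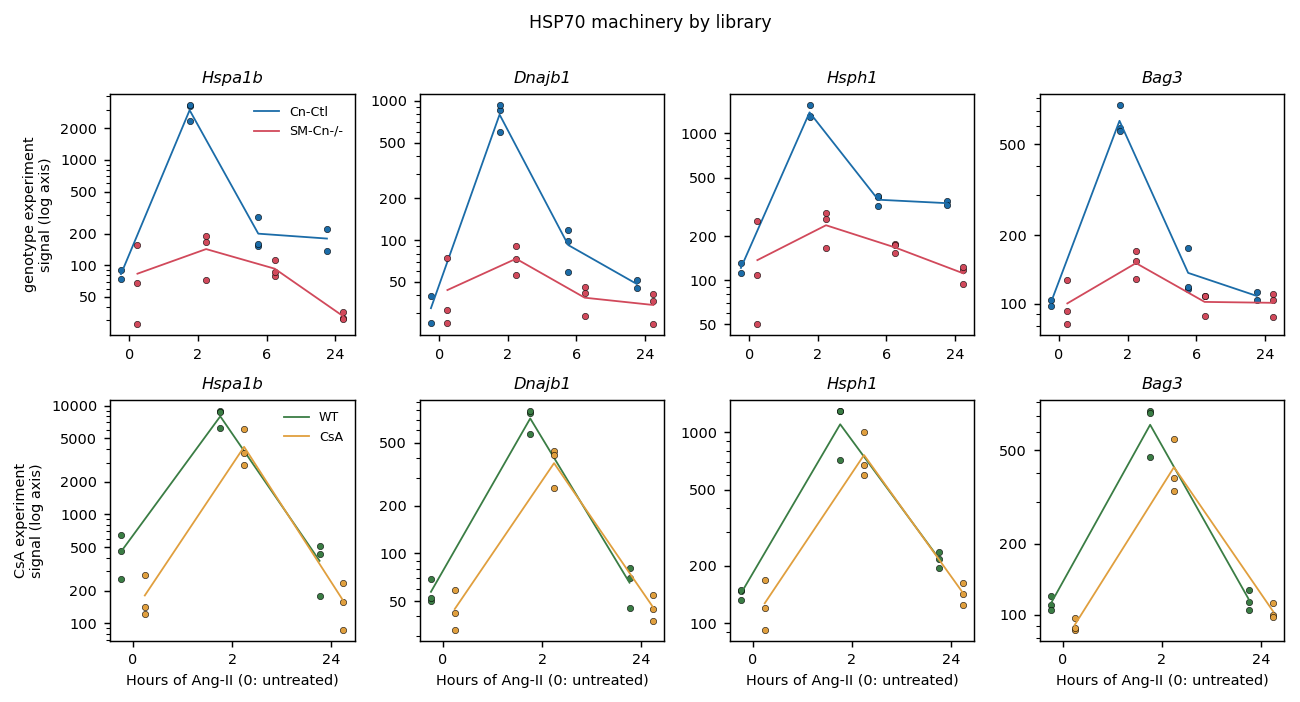
Deposited signal (log axis) of Hspa1b, Dnajb1, Hsph1 and Bag3 in every library of both experiments, with points for libraries (pools of 3 aortas) and lines for group means, by arm and hours of Ang-II. In Cn-Ctl, WT and CsA mice the 2 h points stand above all untreated points for each gene, and most are back near them by 24 h, whereas every SM-Cn-/- point at 2 h lies below every Cn-Ctl point at 2 h.

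The small heat shock proteins split into members that rose strongly and members that did not. Hspb1 (HSP25, chr5:135887919-135889563) was 127 and 142 in untreated Cn-Ctl and 2724, 2538 and 1339 at 2 h (3.96 ± 0.35 (adjusted p = 1.6e-07)), and 113, 118 and 76.7 and 203, 199 and 544 in SM-Cn-/- (1.47 ± 0.31 (adjusted p = 0.0186)). In WT it was 381, 374 and 683 and 5893, 3898 and 5464 (3.44 ± 0.23 (adjusted p = 1.6e-07)), and with CsA 394, 548 and 353 and 2596, 3788 and 2943 (2.86 ± 0.23 (adjusted p = 3.72e-06)). Treated libraries lay above untreated ones in every arm, and SM-Cn-/- replicate 3 at 2 h was well above the other two. Per kb of its longest coding transcript, Hspb1 at 2 h averaged 2366 in Cn-Ctl, below Hspa8, and 5468 in WT, above it.

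Cryab, αB-crystallin, was 161 and 164 in untreated Cn-Ctl and 1289, 1115 and 582 at 2 h (2.54 ± 0.32 (adjusted p = 1.41e-05)), and 121, 118 and 101 and 122, 122 and 192 in SM-Cn-/- (0.33 ± 0.28 (adjusted p = 0.638)). WT libraries held 136, 155 and 171 and 839.6, 518 and 789 (2.19 ± 0.20 (adjusted p = 2.08e-06)), and CsA libraries 131, 142 and 109 and 380.3, 588 and 439 (1.86 ± 0.20 (adjusted p = 2.9e-05)). Hspb8, the partner of BAG3, was 149.5 and 166 and 366, 428 and 332 in Cn-Ctl (1.24 ± 0.15 (adjusted p = 1.27e-05)), and 170.1, 162 and 141 and 254, 248 and 270.4 in SM-Cn-/- (0.71 ± 0.14 (adjusted p = 0.00951)). In WT Hspb8 was 137, 151 and 155 and 376, 292 and 373, and with CsA it was 120.2, 128 and 116 and 232, 277 and 263. For Hspb8 the treated and untreated libraries were apart in all 4 arms. Hspb7, a heart and muscle member, was 478 and 465 and 973, 957 and 844 in Cn-Ctl (0.97 ± 0.25 (adjusted p = 0.0185)), and 324, 580.4 and 417 and 516, 528 and 856 in SM-Cn-/-. In WT Hspb7 was 670.1, 735 and 891 and 1269, 982 and 1313, and with CsA it was 461, 554 and 468 and 789, 1069 and 821. Hspb6 (HSP20) did not pass the test at 2 h in any arm, with log2 fold changes of 0.22 ± 0.23 in Cn-Ctl and 0.04 ± 0.14 in WT. Hspb2 did not either (0.21 ± 0.36 and -0.24 ± 0.20), but its gene model (chr9:50751078-50752354, minus strand) overlaps that of Cryab (chr9:50751325-50756636, plus strand), and the counting is not stated to use strand, so the split of reads between them is uncertain.

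**Figure D3:**
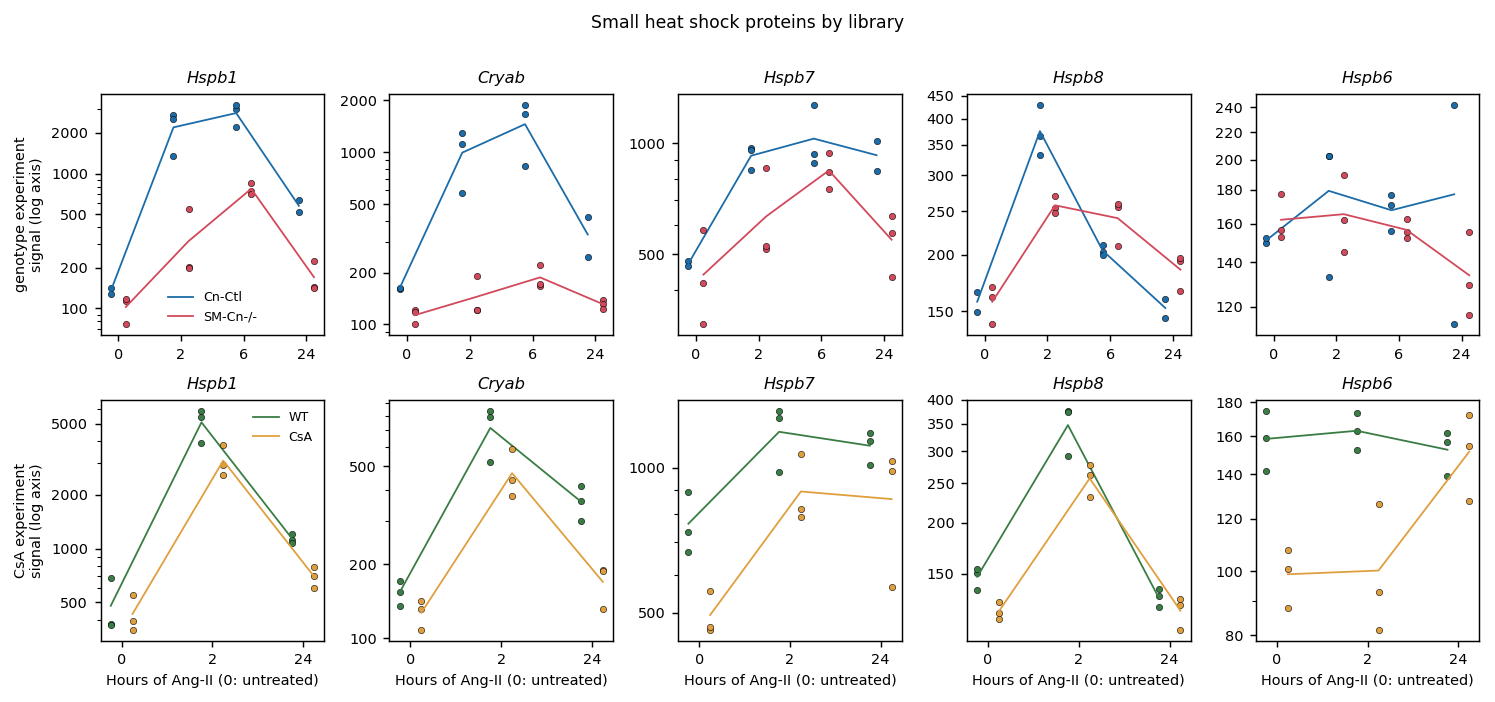
Deposited signal (log axis) of Hspb1, Cryab, Hspb7, Hspb8 and Hspb6 in every library of both experiments, with points for libraries and lines for group means, by arm and hours of Ang-II. Hspb1 and Cryab in Cn-Ctl mice are about as high at 6 h as at 2 h, and Hspb6 shows no rise at 2 h that passes the test in any arm.

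The mitochondrial chaperonin HSP60 and its lid HSP10 are encoded head to head by Hspd1 and Hspe1 (chr1:55077835-55088243 and chr1:55088132-55091307), whose gene models overlap at the shared promoter. Hspd1 was 126 and 189.7 in untreated Cn-Ctl and 491, 531 and 487 at 2 h (1.70 ± 0.26 (adjusted p = 0.000143)), and 270.2, 118 and 167 and 209, 180.0 and 143 in SM-Cn-/- (0.01 ± 0.23 (adjusted p = 0.994)). Hspe1 was 55.7 and 78.0 and 251, 220.3 and 155 in Cn-Ctl (1.63 ± 0.26 (adjusted p = 0.000277)), and 86.1, 58.3 and 51.1 and 56.0, 48.4 and 60.7 in SM-Cn-/- (-0.21 ± 0.24 (adjusted p = 0.724)). Both genes were apart from untreated in Cn-Ctl and overlapped in SM-Cn-/-. Among CCT subunits, whose ring folds actin and tubulin, Cct3 was 101 and 91.5 and 214, 217 and 191 in Cn-Ctl (1.10 ± 0.19 (adjusted p = 0.000665)), and 129, 90.5 and 82.5 and 129.9, 111 and 122 in SM-Cn-/- (0.29 ± 0.17 (adjusted p = 0.492)). Cct2 and Cct5 also rose in Cn-Ctl at 2 h, and Tcp1 did not pass the test (0.56 ± 0.18 (adjusted p = 0.064)).

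Neither heat shock factor was called at 2 h in Cn-Ctl, SM-Cn-/- or WT mice. Hsf1, the main stress-responsive factor, was 37.9 and 46.6 in untreated Cn-Ctl and 49.0, 51.3 and 35.4 at 2 h (0.09 ± 0.23 (adjusted p = 0.899)), and 33.8, 40.2 and 36.3 and 29.5, 33.4 and 43.9 in SM-Cn-/-. Hsf1 was 46.2, 49.8 and 51.3 and 53.5, 43.4 and 55.2 in WT (0.04 ± 0.10 (adjusted p = 0.833)), and 37.7, 35.5 and 33.3 and 43.4, 47.3 and 38.4 with CsA (0.27 ± 0.10 (adjusted p = 0.0678)). Hsf2 was 14.5 and 21.1 and 17.6, 28.9 and 35.4 in Cn-Ctl (0.57 ± 0.35 (adjusted p = 0.409)), and 19.0, 31.8 and 16.1 and 22, 25.1 and 14 in SM-Cn-/-, and 20.0, 16.4 and 16.2 and 22.3, 21.0 and 21.4 in WT (0.30 ± 0.11 (adjusted p = 0.0561)). With CsA, Hsf2 rose from 15.8, 17.1 and 14.8 to 19.6, 23.5 and 24.2 (0.48 ± 0.11 (adjusted p = 0.00579)). At 2 h the Cn-Ctl, SM-Cn-/- and WT libraries overlapped their untreated groups for Hsf1. The files measure RNA and not the activity of either factor.

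In the Cn-Ctl, WT and CsA arms at 2 h a promoter match to the short motif went with a larger median change but not with more calls. The difference in medians was not tested. Members with a match are not all separate cases, since Hspa1a and Hspa1b have nearly the same promoter and Hspd1 and Hspe1 share the long element. Of the 14 members with a match, 11 were called higher in Cn-Ctl at 2 h (median log2 fold change 2.14), against 13 of the 17 without one (1.10). In WT 13 of 14 and 16 of 17 were called (1.76 and 1.03), and with CsA 11 of 14 and 17 of 17 (1.38 and 0.84). In SM-Cn-/- 2 of 14 and 1 of 17 were called (0.35 in both). Of the 3 members with the long element, Hspd1 and Hspe1 rose in Cn-Ctl and Dnajb6 did not pass the test, while Dnajb1, with the third largest change, had no match in these 250 bases. The 9 members without an entry in the promoter table were Hspa13, Hspa8, Hsp90aa1, Hsf1, Cryab, Hsp90ab1, Hspb2, St13 and Hspa9. They are in neither median, and include members that rose strongly, such as Hspa8, and members that were not called, such as Hspa13.

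Fewer members were called at the later times. In Cn-Ctl 14 members were still higher than untreated at 6 h and 4 at 24 h, where 2.72% and 3.22% of all genes were called higher (3.97% and 5.62% in either direction). The 6 h count was 8 without untreated replicate 2, 6 without untreated replicate 3, 9 without 6 h replicate 3 and 7 with only the compared groups fitted, and 6 members (Hspa8, Hsp90aa1, Hspb1, Cryab, Dnaja4 and Stip1) passed under every alternative and with any library left out. Hspb1 at 6 h was 2206, 3009.8 and 3211 (4.36 ± 0.35 (adjusted p = 3.46e-07)) and at 24 h 517 and 636 (2.09 ± 0.38 (adjusted p = 0.00221)). Cryab was 835, 1658 and 1876 at 6 h (3.08 ± 0.32 (adjusted p = 7.07e-06)) and 248 and 418 at 24 h (0.99 ± 0.35 (adjusted p = 0.103)). All 6 h libraries of both were far above untreated, and 2 of the 3 Cryab libraries at 6 h were above all at 2 h. Hspa8 was 6318, 5313 and 6697 at 6 h (2.05 ± 0.28 (adjusted p = 0.000108)). Hsp90aa1 was 1997, 2440.2 and 2418 (1.92 ± 0.23 (adjusted p = 3.51e-05)) and Dnaja4 was 79.4, 76.3 and 84.5 (1.72 ± 0.21 (adjusted p = 4.59e-05)). By contrast, Hspa1b was 151, 158 and 289 at 6 h (1.21 ± 0.47 (adjusted p = 0.171)) and 136 and 222 at 24 h. Bag3 was 117, 118 and 175 (0.41 ± 0.21 (adjusted p = 0.337)) and 104 and 113, close to untreated.

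From 2 to 6 h in Cn-Ctl, 13 members fell and none rose past the test, where 1.37% of all genes were called lower and 1.67% in either direction. The log2 changes were -4.17 ± 0.47 (adjusted p = 4.03e-05) for Hspa1a, -3.94 ± 0.42 (adjusted p = 1.99e-05) for Hspa1b, -3.14 ± 0.33 (adjusted p = 1.99e-05) for Dnajb1, -2.23 ± 0.19 (adjusted p = 7.34e-07) for Bag3 and -1.97 ± 0.33 (adjusted p = 0.00258) for Hsph1. Dnaja1, Dnaja4, Dnajb4, Hspb8, Chordc1, Ptges3, Cacybp and Hspd1 also fell. Hspb1 moved by 0.40 ± 0.31 (adjusted p = 0.594) and Cryab by 0.54 ± 0.28 (adjusted p = 0.381) over the same interval, and neither passed the test. At 24 h the 4 called members were Hspb1, Stip1 (187 and 232, 1.12 ± 0.27 (adjusted p = 0.0153)), Hspb7 (1015 and 841, 0.97 ± 0.27 (adjusted p = 0.0368)) and Hsph1 (344 and 326, 1.46 ± 0.41 (adjusted p = 0.0369)), and leaving out either untreated Cn-Ctl library, or replicate 3 at 24 h, left 1 of the 4.

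In SM-Cn-/- aorta the largest change came at 6 h and in Hspb1. Its signal was 748, 854 and 711 at 6 h (2.93 ± 0.31 (adjusted p = 1.37e-05)), above every untreated and every 2 h library, and 144, 226 and 142 at 24 h (0.72 ± 0.31 (adjusted p = 0.364)). Hspb1 was also the only member called between 2 and 6 h (1.45 ± 0.31 (adjusted p = 0.0269), against 0.728% of all genes called higher and 1.41% in either direction), a call lost with edgeR and when only the compared groups were fitted. Hspa8 was 3248, 2673 and 2374 at 6 h (1.12 ± 0.25 (adjusted p = 0.0179)) and Hsp90aa1 763, 1029.6 and 1012 (0.84 ± 0.21 (adjusted p = 0.0311)). Hspb7 was 838, 942 and 750.4 (0.97 ± 0.22 (adjusted p = 0.02)) and Hspb8 255, 259 and 209 (0.61 ± 0.14 (adjusted p = 0.0194)). These 5 members were called at 6 h, where 1.5% of all genes were called higher and 2.34% in either direction, and leaving out untreated replicate 3 or 6 h replicate 2 left 1 of them. Cryab at 6 h was 222, 168 and 173 (0.72 ± 0.28 (adjusted p = 0.198)) and Hspa1b 79.8, 111 and 86.9 (0.47 ± 0.42 (adjusted p = 0.622)). At 24 h 0 of the 40 were called by limma, edgeR or DESeq2, and 0.79% of all genes were called by limma. By limma 6 members had an unadjusted p under 0.05, as had 1660 of the 14424 genes tested, so this share was near the background.

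The 3 calls of SM-Cn-/- mice at 2 h rest on few libraries. Without untreated replicate 1, in which Hspa1b, Hsph1 and Dnajb1 were highest of the 3, 9 members were called. Without untreated replicate 3 the count was 0, and without 2 h replicate 3 only 1 was. White fat markers (4 of 4 measured) summed to 145 to 657 in the untreated SM-Cn-/- libraries and to 117 to 189 at 2 h, against 129.8 to 183 in untreated Cn-Ctl and 97.5 to 138 in Cn-Ctl at 2 h. Their part in the result was not tested.

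Compared with Cn-Ctl at the same time, no member differed in untreated SM-Cn-/- mice by limma, edgeR or DESeq2, and 0.0139% of all genes were called by limma. By limma 1 member had an unadjusted p under 0.05, as had 757 of the 14424 genes tested. At 2 h 24 members were lower in SM-Cn-/-, at 6 h 9 and at 24 h 11, with none higher, where 2.97%, 1.44% and 2.68% of all genes were called lower (3.7%, 1.98% and 4.94% in either direction). At 2 h the difference was -4.47 ± 0.42 (adjusted p = 1.11e-06) for Hspa1b, -3.43 ± 0.33 (adjusted p = 1.11e-06) for Dnajb1 and -2.90 ± 0.31 (adjusted p = 5.23e-06) for Hspb1, and at 6 h it was -2.88 ± 0.28 (adjusted p = 7.5e-06) for Cryab. Endothelial markers (5 of 5 measured) moved with the genotype, summing to 299 to 411 in untreated Cn-Ctl and 542 to 690 in untreated SM-Cn-/- libraries, 282 to 520 and 637 to 825 at 2 h, 475 to 578 and 564 to 1273 at 6 h, and 432 to 448 and 1039 to 1118 at 24 h. At 24 h the smooth muscle sum was 26793 to 48416 in Cn-Ctl and 23693 to 26405 in SM-Cn-/-, and the brown fat sum 51.4 to 600.5 and 641 to 1163. Their part in these counts was not tested. The 24 h count is less stable, since without Cn-Ctl 24 h replicate 3, one of a group of 2, it was 0.

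The difference between the genotypes in the response itself, tested as an interaction, passed for 14 members at 2 h, all smaller in SM-Cn-/-, where 0.492% of all genes passed in that direction and 0.513% in either. Dnaja4 differed by -2.80 ± 0.29 (adjusted p = 3.22e-05), Dnajb1 by -3.73 ± 0.49 (adjusted p = 0.000808) and Bag3 by -2.03 ± 0.28 (adjusted p = 0.00102). With Hspa1b, these were the 4 members that passed under every alternative and with any library left out. The others were Hspa1a, Hspa8, Hsph1, Hspa4l, Hsp90aa1 (-1.81 ± 0.31 (adjusted p = 0.00607)), Hspb1 (-2.49 ± 0.47 (adjusted p = 0.0125)), Cryab (-2.21 ± 0.43 (adjusted p = 0.0144)), Dnaja1, Hspd1 and Hspe1. Hspb8 (-0.53 ± 0.21 (adjusted p = 0.449)) and Dnajb4 (-1.33 ± 0.48 (adjusted p = 0.384)), both called in each genotype on its own, did not pass, and Hsf1 and Hsf2 did not either. The count was 4 without untreated Cn-Ctl replicate 2, 8 without untreated Cn-Ctl replicate 3, 6 without Cn-Ctl 2 h replicate 2 and 5 without SM-Cn-/- 2 h replicate 2. At 6 h Dnaja4 (-1.61 ± 0.29 (adjusted p = 0.0278)) and Cryab (-2.36 ± 0.43 (adjusted p = 0.0278)) passed, where 0.0624% of all genes did. Neither call is stable, since the count was 0 with only the compared groups fitted and without any single one of 8 libraries: either untreated Cn-Ctl library, Cn-Ctl 6 h replicate 2 or 3, SM-Cn-/- untreated replicate 1 or 2, or SM-Cn-/- 6 h replicate 2 or 3. At 24 h 0 passed by limma, against 0.513% of all genes, and edgeR and DESeq2 on recovered reads called 0 and 4. By limma 10 of the 40 members had an unadjusted p under 0.05, as had 1588 of the 14424 genes tested.

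**Figure D4:**
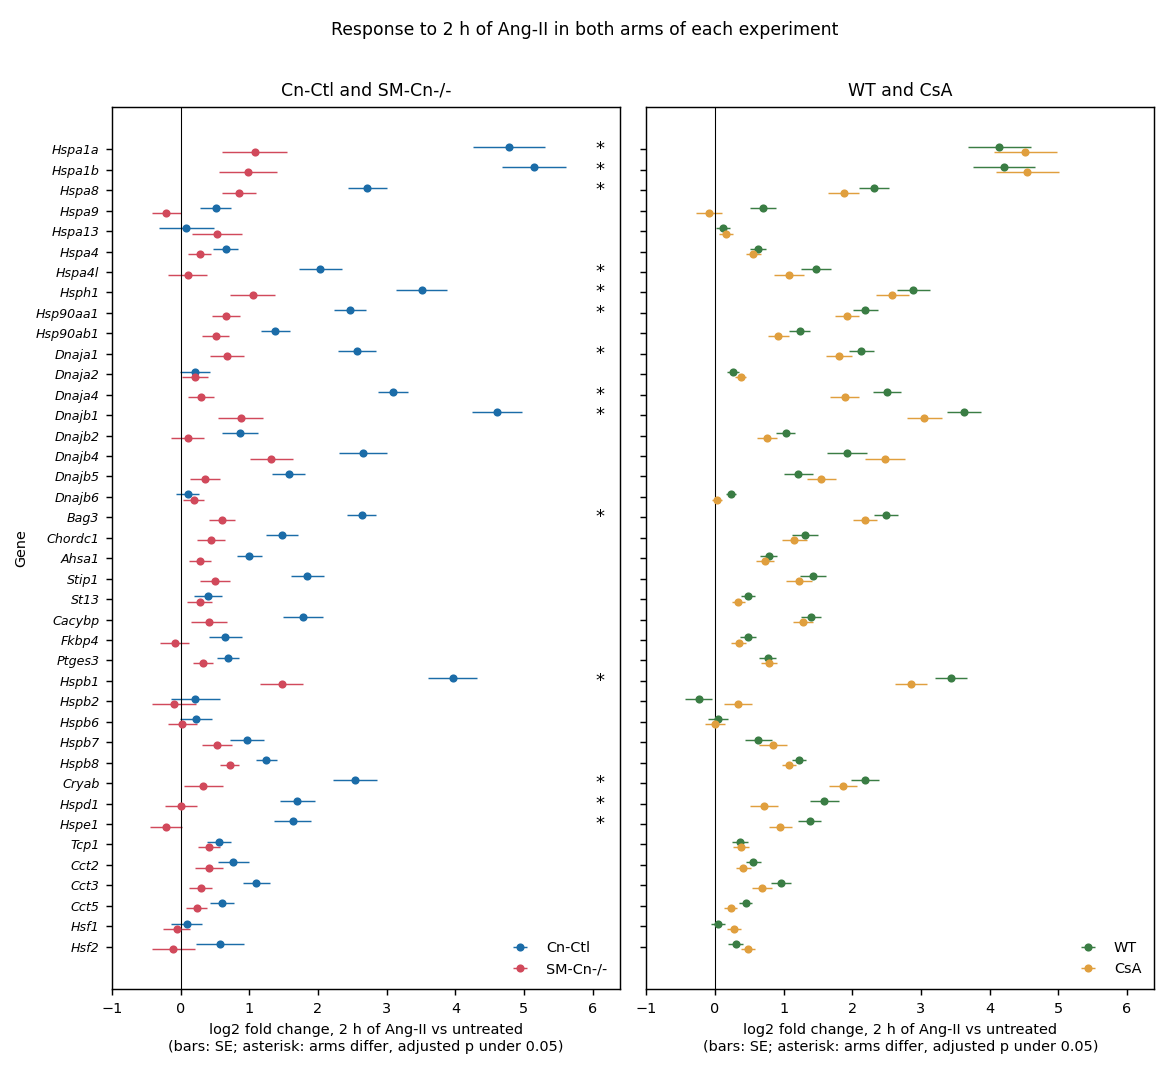
Log2 fold change ± SE of each member at 2 h of Ang-II against untreated, for Cn-Ctl and SM-Cn-/- in one panel and WT and CsA in the other, with an asterisk where the 2 responses differ at an adjusted p under 0.05 by limma. There are 14 asterisks in the genotype panel and 0 in the CsA panel.

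After CsA the 2 h response was not shown to differ from WT for any member. The interaction of CsA with Ang-II at 2 h passed for 0 of 40 members by limma (0.146% of all genes called) and for 0 by edgeR and DESeq2 on recovered reads. By limma 2 members, Hspd1 (-0.88 ± 0.29 (adjusted p = 0.21)) and Hspa9 (-0.78 ± 0.27 (adjusted p = 0.229)), had an unadjusted p under 0.05. So did 1898 of the 13738 genes tested, a larger share than among the members. For Hspa1b the responses differed by 0.34 ± 0.64, for Dnajb1 by -0.58 ± 0.36, for Hspb1 by -0.59 ± 0.33 and for Bag3 by -0.30 ± 0.25 (CsA minus WT). With 3 libraries a group, differences of the size of these errors were not detectable. At 2 h itself 34 of the 40 members had a lower mean log2 signal in CsA than in WT. The median difference was -0.28, against 0.005 over all genes. An unadjusted p under 0.05 by limma was reached by 15 of the 40, and by 2546 of the 13738 genes tested. Only Hspb6 was called lower (81.6, 126 and 92.8 against 163, 152 and 174, -0.72 ± 0.14 (adjusted p = 0.0289), where 1.33% of all genes were called). That count was 0 with only the compared groups fitted and without WT or CsA replicate 1 or 3 at 2 h, 6 without WT replicate 2, and 6 with DESeq2 on recovered reads. At 2 h the smooth muscle sum was 27472 to 34519 in WT and 19405 to 25073 with CsA, and the white fat sum 202 to 349 and 411 to 1130. Their part in the Hspb6 value and in the lower level of the other members was not tested.

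Before Ang-II, 9 members differed between CsA and WT aorta, or 22.5% of them, in a comparison in which 25.2% of all genes were called, so the share of members was near the background. The count was 5 without WT untreated replicate 3 or CsA untreated replicate 3. CsA mice carried a pump at this stage and WT mice did not, so pump and drug cannot be told apart here. The mitochondrial chaperones were higher. Hspa9 was 181, 198 and 177 in WT and 368, 312 and 358 with CsA (0.90 ± 0.19 (adjusted p = 0.0039)). Hspd1 was 132, 134 and 117 and 248, 201 and 217 (0.79 ± 0.21 (adjusted p = 0.0116)), and Hspe1 38.7, 48.4 and 36.8 and 55.5, 55.4 and 60.4 (0.47 ± 0.17 (adjusted p = 0.0484)). The groups did not overlap for any of these 3. Lower with CsA were the muscle-enriched small heat shock proteins Hspb6, at 159, 142 and 175 in WT and 88.1, 101 and 108 with CsA (-0.68 ± 0.14 (adjusted p = 0.00398)), and Hspb7, at 670.1, 735 and 891 and 461, 554 and 468 (-0.62 ± 0.20 (adjusted p = 0.0327)). Dnajb4 (-1.01 ± 0.29 (adjusted p = 0.0206)), Dnajb5 (-0.89 ± 0.21 (adjusted p = 0.00633)), Hspa1b (-1.33 ± 0.45 (adjusted p = 0.0433)) and Hsf1 (-0.46 ± 0.10 (adjusted p = 0.00457)) were lower too. Markers of other tissues moved with this comparison. White fat markers (4 of 4 measured) summed to 133 to 254 in untreated WT and 636 to 1279.8 in untreated CsA libraries. Brown fat markers (3 of 3, Ucp1, Cidea and Elovl3) summed to 94.1 to 210.4 and 477 to 764. Heart muscle markers (4 of 4) summed to 48.5 to 318 and 119.5 to 1263, which overlap. Endothelial markers (5 of 5) summed to 347 to 587 and 905 to 1044 and macrophage markers (4 of 4) to 36.6 to 51.7 and 75.1 to 105, and the smooth muscle sum moved as given above. Their part in these 9 calls was not tested.

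By 24 h of Ang-II the CsA and WT arms differed in the members called. In WT 15 of the 40 members were higher than untreated and Hsf1 was lower (-0.27 ± 0.10 (adjusted p = 0.0453)). Of all genes, 18.1% were called higher and 35% in either direction. The share of members called higher was thus above the background, and the share called in either direction was near it. Hspb1 was 1215, 1121 and 1071 at 24 h in WT (1.30 ± 0.23 (adjusted p = 0.000477)) and Cryab was 363, 415 and 300.4 (1.22 ± 0.20 (adjusted p = 0.000274)). Hspa8 was 2479, 3102 and 1909 (0.70 ± 0.22 (adjusted p = 0.0225)) and Cct3 157, 188 and 129 (0.84 ± 0.14 (adjusted p = 0.00031)). With CsA 4 of the 40 were called, against 8.98% of all genes, so this share was also near the background. The count was 0 with only the compared groups fitted, without CsA untreated replicate 1, and without CsA 24 h replicate 1 or 2. It was 8 with quantile normalization and 7 with DESeq2 on recovered reads. Hspb6 at 155, 172 and 128 (0.61 ± 0.14 (adjusted p = 0.0172)) and Hspb7 at 1033, 985 and 565 (0.75 ± 0.20 (adjusted p = 0.03)) were higher, and St13 (-0.37 ± 0.10 (adjusted p = 0.0342)) and Fkbp4 (-0.40 ± 0.11 (adjusted p = 0.0388)) were lower. Hspb1 with CsA was 605, 789 and 708 (0.72 ± 0.23 (adjusted p = 0.0663)) and Cryab 190.2, 188 and 131 (0.40 ± 0.20 (adjusted p = 0.221)). From 2 to 24 h 30 members fell in WT, and with CsA 30 fell and Hspb6 rose, where 19.1% and 10.6% of all genes were called lower (36.2% and 18% in either direction). Hspa1b was 434, 514 and 179 at 24 h in WT and 158, 236 and 87.7 with CsA, and both ranges overlapped those of their untreated groups.

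At 24 h 10 members were lower in CsA than in WT and none was higher, against 3.54% of all genes lower and 5.58% in either direction: Cryab (-1.09 ± 0.20 (adjusted p = 0.00834)), Hspa8 (-1.01 ± 0.22 (adjusted p = 0.0176)), Hsp90aa1, Hsp90ab1, Hspa4l, Hspa13, Cacybp, Cct2, Cct3 and Cct5. Without WT 24 h replicate 2 the count was 0. White fat markers at 24 h summed to 305 to 332 in WT and 444 to 1100.1 with CsA, and their part in the result was not tested. The response at 24 h differed between the arms for 6 members, all smaller with CsA, against 4.89% of all genes in that direction and 9.42% in either: Hspd1 by -1.18 ± 0.29 (adjusted p = 0.0206), Hspa9 by -0.90 ± 0.27 (adjusted p = 0.0471) and Hspe1 by -0.80 ± 0.23 (adjusted p = 0.0439). The others were Cct3 by -0.72 ± 0.20 (adjusted p = 0.0365), Cct5 by -0.64 ± 0.13 (adjusted p = 0.0103) and Cct2 by -0.50 ± 0.15 (adjusted p = 0.0491). The count was 1 without WT untreated replicate 3, WT 24 h replicate 2 or CsA 24 h replicate 1 or 2, 3 with edgeR, and 12 with quantile normalization or DESeq2. For the mitochondrial genes this includes the higher untreated level with CsA. Hspa9 was 276, 289 and 257 in WT at 24 h and 224, 218 and 423 with CsA, and Hspd1 184, 229 and 168 and 124, 118 and 214, so that CsA replicate 3 at 24 h stood with the untreated CsA libraries. That library also had the highest white fat sum (1100.1) and brown fat sum (877) of its group, whose lowest sums were 444 and 222, and the part of this in the result was not tested. Cct2 and Cct3 showed no such split, Cct2 being 182, 204 and 152 in WT at 24 h and 126, 128 and 123 with CsA, from 107, 118 and 111 and 105, 123 and 109 untreated.

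**Figure D5:**
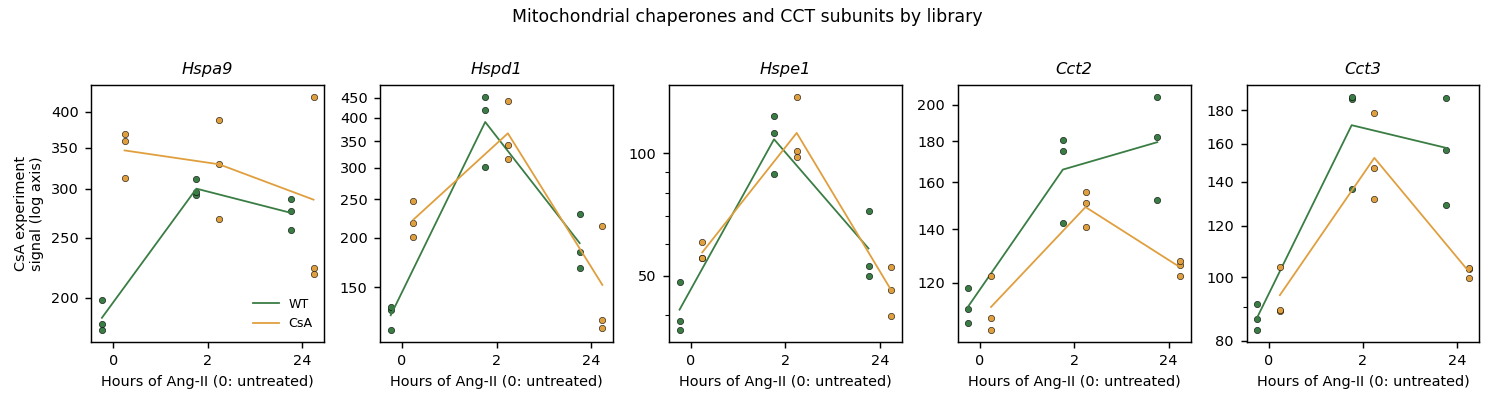
Deposited signal of Hspa9, Hspd1, Hspe1, Cct2 and Cct3 in every library of the CsA experiment, with points for libraries and lines for group means, for untreated mice and 2 and 24 h of Ang-II. Untreated CsA points lie above untreated WT points for the 3 mitochondrial genes, and CsA replicate 3 at 24 h is the high point of its group for Hspa9 and Hspd1.

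The other chaperone genes measured, 82 in the genotype and 81 in the CsA experiment from 5 lists of related families, are given for comparison. In Cn-Ctl at 2 h 14 of 82 were higher and 1 lower (median 0.07), in SM-Cn-/- 2 and 0, in WT 22 and 2 of 81, and with CsA 23 and 1. Of all genes tested, 4.72%, 0.984%, 11.4% and 12.3% were called higher in these arms, in that order. By list at 2 h in Cn-Ctl, 4 of 14 other HSP70, HSP110 and exchange factor genes were higher, 1 of 30 other J proteins, 3 of 18 other HSP90 proteins and cochaperones, 2 of 10 other CCT and prefoldin subunits, and 4 of 10 other small heat shock and heat-inducible genes. Ier5, a heat-inducible regulator of HSF1, was among them (2.98 ± 0.35 (adjusted p = 5.94e-06) in Cn-Ctl and 0.36 ± 0.31 (adjusted p = 0.64) in SM-Cn-/-). It changed by 2.81 ± 0.26 (adjusted p = 1.74e-06) in WT and 1.77 ± 0.26 (adjusted p = 0.000294) with CsA. The testis-enriched Hspa1l was called in Cn-Ctl (1.63 ± 0.33 (adjusted p = 0.003)) and not in SM-Cn-/- (0.75 ± 0.30 (adjusted p = 0.27)), although 10.7% of Hspa1a windows of 36 bases also occur in Hspa1l. Fkbp5, an HSP90 cochaperone induced by glucocorticoids, was called in both genotypes, at 2.97 ± 0.31 (adjusted p = 1.7e-06) in Cn-Ctl and 3.70 ± 0.28 (adjusted p = 1.01e-07) in SM-Cn-/-.

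For 2 chaperones of the endoplasmic reticulum among them, the log2 changes in Cn-Ctl and WT mice were larger at 24 h than at 2 h. Hspa5 (BiP) was called at 24 h in Cn-Ctl (1.80 ± 0.23 (adjusted p = 8.79e-05)) and WT (1.71 ± 0.14 (adjusted p = 5.84e-07)), and not in SM-Cn-/- (0.23 ± 0.19 (adjusted p = 0.715)) or with CsA (0.44 ± 0.14 (adjusted p = 0.0557)). Hyou1, the HSP110 of the endoplasmic reticulum, was called at 24 h in Cn-Ctl (2.04 ± 0.22 (adjusted p = 1.14e-05)) and WT (1.33 ± 0.13 (adjusted p = 2.9e-06)), and not in SM-Cn-/- (0.58 ± 0.18 (adjusted p = 0.148)) or with CsA (0.15 ± 0.13 (adjusted p = 0.502)). At 2 h Hspa5 had moved by 0.98 ± 0.21 in Cn-Ctl and 0.68 ± 0.14 in WT, and Hyou1 by 0.70 ± 0.20 and 0.11 ± 0.13.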

How the data were processed

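Aortic RNA was sequenced from 40 libraries, 22 for the genotype comparison and 18 for CsA. Per the submitters' processing notes, the authors aligned reads with Bowtie 0.12.7 and estimated expression with RSEM 1.16 on GRCm38, and deposited a normalised signal per gene, the method of which is not given in the sources used here. On the low values, each value equalled a whole number of reads, with 0.5 added, over a scaled read total. In all, 100% of values came out whole within 0.01, so the deposited signal was also converted back to reads.

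Members were matched by symbol. Members, lists and promoter motif were chosen with earlier results of these data known. The genes named with every library were Hspa1a, Hspa1b, Dnajb1, Hsph1, Hsp90aa1, Hspb1, Hspa8, Bag3, Hsf1 and Hsf2, and every member with an adjusted p under 0.05 and an absolute log2 fold change of at least 1 in any comparison of Ang-II with untreated. Others were named as examples after their values were seen. Protein-coding genes (GENCODE vM21) with a signal of at least 1 in at least 2 libraries were tested (14424 genes for the genotypes, 13738 for CsA). log2(signal + 0.5) was fitted with limma 3.58.1 (trend) in R 4.3.3 over all libraries of an experiment, with Benjamini-Hochberg adjustment over all genes tested and 26 comparisons including interactions. The test was tried on simulated data in which 200 genes changed. With the genotype design it found 22 of 100 changes of 2-fold and 93 of 100 of 4-fold. With the CsA design it found 53 and 99. False calls numbered 2 and 6. The simulation set its own spread between replicates, so these shares need not hold for the data. Each library pooled 3 aortas from separate mice, and p-values measure the spread between such pools. Alternatives were quantile normalization, a pseudocount of 1, a group mean of at least 5, no filter, all listed genes, a replicate block, only the groups compared, edgeR 4.0.16 quasi-likelihood and DESeq2 1.42.0 on recovered reads, and leaving out each library. Replicates differed beyond sampling noise, so none was merged. Replicate numbers did not mark shared mice, and the deviations of same-numbered libraries correlated over a range similar to that of differently numbered ones. Levels per kb used the longest protein-coding transcript of each gene (GENCODE vM21), with joined exons as the other length. Promoters came from RefSeq (GRCm38.p6), with 31 members matched and 9 unmatched.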

Additional observations from a re-analysis of the deposited data

Results flagged for a closer look

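In every case what drew attention was a difference between 2 arms in the same contrast, by limma's interaction test at an adjusted p under 0.05. Groups of 2 or 3 libraries were too small to test for an outlying sample. The values are log2 response differences, and no explanation of them was tested.

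At 2 h of Ang-II the response was smaller in SM-Cn-/- than in Cn-Ctl mice for Hspa1a (-3.71), Hspa1b (-4.16), Hspa8 (-1.87), Hspa4l (-1.93), Hsp90aa1 (-1.81), Hspb1 (-2.49), Cryab (-2.21), Hspd1 (-1.69), Hspe1 (-1.84), Hsph1 (-2.47), Dnaja1 (-1.90), Dnaja4 (-2.80), Dnajb1 (-3.73) and Bag3 (-2.03). At 6 h it was smaller for Cryab (-2.36) and Dnaja4 (-1.61).

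At 24 h of Ang-II it was smaller with CsA than in WT for Hspa9 (-0.90), Hspd1 (-1.18), Hspe1 (-0.80), Cct2 (-0.50), Cct3 (-0.72) and Cct5 (-0.64).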

How the results depend on the processing

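The counts of members called moved by over 1.5 times, or to or from 0, in 24 combinations of a comparison with an alternative that kept all libraries, and did not in the other 210. The counts at 2 h of Ang-II in Cn-Ctl, WT and CsA mice, of SM-Cn-/- against Cn-Ctl at 2 h, and from 2 to 6 h in Cn-Ctl did not, under any of these alternatives. With quantile normalization the count was 7 rather than 14 for the genotype interaction at 2 h, 1 rather than 2 for that at 6 h, 8 rather than 4 for CsA at 24 h and 12 rather than 6 for the CsA interaction at 24 h. With only the groups compared in the fit it was 7 for Cn-Ctl at 6 h, 1 for SM-Cn-/- at 6 h and 0 for SM-Cn-/- from 2 to 6 h, the genotype interaction at 6 h, CsA at 24 h, and CsA against WT at 2 and 24 h, fits that have fewer libraries for the spread. With a group mean of at least 5 it was 2 for CsA against WT at 2 h. On recovered reads edgeR gave 0 for SM-Cn-/- from 2 to 6 h, 1 for the genotype interaction at 6 h and 3 for the CsA interaction at 24 h, and DESeq2 gave 9 for Cn-Ctl at 24 h, 3 for SM-Cn-/- from 2 to 6 h, 4 for the genotype interaction at 24 h, 7 for CsA at 24 h, 6 for CsA against WT at 2 h and 12 for the CsA interaction at 24 h. The cause was not tested for these changes except where fewer libraries were fitted.

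Same-numbered libraries in different groups had correlations of deviations from -0.37 to 0.34 (median 0.0587) over 71 pairs in the genotype experiment. Differently numbered ones had -0.41 to 0.34 (median -0.0419) over 140 pairs. In the CsA experiment the values were -0.39 to 0.38 (median -0.0283) over 45 pairs and -0.32 to 0.40 (median -0.0129) over 90 pairs. The ranges were thus similar, and whether the numbers mark a shared batch was not tested. With a replicate block the count was 3 for SM-Cn-/- from 2 to 6 h, 0 for CsA against WT at 2 h and 2 for the CsA interaction at 24 h, and the other counts stayed within 1.5 times.

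Leaving out 1 library at a time gave 6 to 13 members for Cn-Ctl at 6 h, 1 to 4 at 24 h, 0 to 9 for SM-Cn-/- at 2 h, 1 to 5 at 6 h and 0 to 4 from 2 to 6 h. SM-Cn-/- against Cn-Ctl gave 5 to 11 at 6 h and 0 to 10 at 24 h. The genotype interaction gave 4 to 16 at 2 h, 0 to 2 at 6 h and 0 to 2 at 24 h. WT at 24 h gave 7 to 16, CsA at 24 h 0 to 6, CsA against WT 5 to 8 untreated, 0 to 6 at 2 h and 0 to 14 at 24 h, and the CsA interaction at 24 h 1 to 7. The lowest came without Cn-Ctl untreated replicate 3 (6 h, 6), WT 24 h replicate 2 (WT at 24 h, 7, and CsA against WT, 0), WT untreated replicate 3 or CsA untreated replicate 3 (CsA against WT untreated, 5), and SM-Cn-/- 6 h replicate 3 (against Cn-Ctl, 5). Cn-Ctl at 2 h gave 22 to 26, WT at 2 h 30 to 35, CsA at 2 h 27 to 32 and SM-Cn-/- against Cn-Ctl at 2 h 18 to 25.

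Sign changes concerned uncalled values near 0. On the log2 scale, quantile normalization gave -0.0276 for Hsf1 in Cn-Ctl at 2 h and -0.0802 for it in WT, Dnajb2 -0.0099 and Hspd1 -0.14 in SM-Cn-/- at 2 h, and Ahsa1 0.0255 for the CsA interaction at 2 h, while edgeR and DESeq2 gave Hspd1 -0.0427 and -0.0898 in SM-Cn-/-. Leaving out 1 library moved Hsf1 at 2 h between -0.0617 and 0.25 (Cn-Ctl), between -0.22 and 0.0622 (SM-Cn-/-) and between -0.0251 and 0.15 (WT). In SM-Cn-/- at 2 h it moved Hsf2 between -0.31 and 0.17, Hspa4l between -0.18 and 0.27, Hspd1 between -0.28 and 0.32, Hspe1 between -0.37 and 0.0058, and Dnajb2 between -0.0875 and 0.27. It moved Ahsa1 in the CsA interaction at 2 h between -0.21 and 0.0296, and the median of the members in SM-Cn-/- at 24 h between -0.31 and 0.0949.

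Over all genes, quantile normalization shifted the split of higher to lower calls from 681 and 218 to 449 and 241 for Cn-Ctl at 2 h, from 392 and 180 to 344 and 266 for Cn-Ctl at 6 h, from 105 and 429 to 106 and 238 for SM-Cn-/- against Cn-Ctl at 2 h, from 1562 and 1375 to 1078 and 1613 for WT at 2 h, from 1021 and 1452 to 1326 and 1031 for CsA from 2 to 24 h, from 1904 and 1560 to 1547 and 2341 for CsA against WT untreated, from 54 and 129 to 13 and 55 at 2 h, and from 622 and 672 to 911 and 593 for the CsA interaction at 24 h. It moved the median of all genes by under 0.1 in every comparison. The shallowest library held 2728007 reads.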
